A study of Mus musculus with 30 samples.

Results

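NRF2, the protein encoded by Nfe2l2, is the transcription factor that cells use to raise their antioxidant defences. In unstressed cells KEAP1 holds NRF2 for ubiquitination by a CUL3 ligase, and oxidants or electrophiles that modify cysteines of KEAP1 let NRF2 accumulate, pair with small MAF proteins and bind antioxidant response elements (AREs). The RPE, the pigmented layer behind the photoreceptors, lives under light and high oxygen and digests the outer segment tips that the photoreceptors shed. The receptor tyrosine kinase MERTK takes part in the uptake of these tips by the RPE and of apoptotic cells by macrophages.

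The 10 genes described here were chosen by name as the 2 regulators, Nfe2l2 and Keap1, and 8 target genes. Hmox1 and Nqo1 act on haem and quinones, Gclc, Gclm, Slc7a11 and Gsr make and recycle glutathione, and Txnrd1 and Srxn1 serve the thioredoxin and peroxiredoxin system. Each symbol matched 1 of the 55573 rows in the RPE table and 1 in the table of bone marrow-derived macrophages (BMDMs), and 10 of 10 had a mean of at least 10 normalized counts in each tissue. The tissues came from 30 libraries. RPE was taken at postnatal day 25 from 6 B6 WT mice, 6 mice of the line Mertk-/-V1 and 3 each of the lines Mertk-/-V2 and Mertk-/-V3, and BMDMs were grown from bone marrow in L929-conditioned medium for 7 days, with 3 libraries of each genotype. Mertk-/-V1 mice lack exon 17 of Mertk and keep a neomycin cassette; the allele was made in embryonic stem cells of another strain and crossed to B6, so DNA of that strain remains around Mertk. In Mertk-/-V2 mice exon 18 was excised from a floxed allele of C57BL/6NJ origin by a tamoxifen-dependent Cre in mice, whose excised offspring were crossed to C57BL/6J until the Cre was gone. In Mertk-/-V3 mice exons 3 and 4 were targeted with CRISPR/Cas9 in C57BL/6NJ eggs. Genome from C57BL/6NJ thus remained in both lines. B6 WT mice were bred from a vendor's stock and were the control for all 3 lines, so the comparisons with B6 WT within a tissue share the same control libraries. The RPE was dislodged from the posterior eyecup without sorting. In bulk RNA of this kind fewer cells of a type and less RNA per cell cannot be told apart.

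A promoter of 250 bases before to 50 bases after the start site was at hand, from RefSeq on GRCm38.p6, for 7 of the 10 genes. The core of the ARE was searched as TGACNNNGC on both strands. It occurred in 4 of the 9 promoters of these genes, and so in 4 genes, against 14.0% of all 27025 genes with a promoter in the same table. These stretches are shown because they are the letters that NRF2 is known to read; the core is in capitals, with 10 bases on either side, written 5′ to 3′ on the strand of the gene.
Nfe2l2, chr2:75704885-75704913, minus strand, upstream of the start site: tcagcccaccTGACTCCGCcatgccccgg
Gclm, chr3:122245413-122245441, plus strand, upstream of the start site: gctcccgggcGCACCGTCAactctcacga
Txnrd1, chr10:82859104-82859132, plus strand, upstream of an inner start site: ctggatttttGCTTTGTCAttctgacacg
Srxn1, chr2:152105542-152105570, plus strand, just after the start site: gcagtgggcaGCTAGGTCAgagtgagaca
The core reads along the gene in Nfe2l2 and on the opposite strand in the other 3 genes. Srxn1 also held 2 matches to the AP-1 motif TGANTCA in its window, none of which overlapped the ARE core, against 8.97% of genes with such a match. The promoter of Slc7a11 held no ARE core but 2 matches to TGATGNAA, the composite element read by ATF4, which 4.51% of genes hold. It is shown because Slc7a11 is the gene that differed most in BMDMs. The matches, in capitals, face each other within 27 bases.
Slc7a11, chr3:50443653-50443679, minus strand, upstream of the start site: TGATGCAAacctggagaatTTGCATCA
No match to these 3 motifs was found in the windows of Keap1 and Nqo1, and sequence outside the windows was not searched. Such matches are descriptions of the letters only, and binding was not measured.

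Depth was 14137666 to 34124049 reads per RPE library and 16629659 to 25653814 per BMDM library. Mertk itself, summed over the whole gene, was lower in Mertk-/-V1 and Mertk-/-V3 of each tissue (log2 fold change −1.46 and −2.01 in RPE, −1.61 and −1.94 in BMDMs, adjusted p by limma at most 0.00267). It was not lower in Mertk-/-V2, at 0.39 in RPE (adjusted p by limma 0.954) and 0.43 in BMDMs (adjusted p 0.00129), so reads over the whole gene did not mark the libraries labelled Mertk-/-V2 as knockouts. All 10 RPE markers were present in RPE and all 8 macrophage markers in BMDMs. The RPE libraries differed in their make-up. The summed rod photoreceptor markers ran from 32645 to 872504 normalized counts, and they were highest in Mertk-/-V1 replicates 5 and 6 and in Mertk-/-V3 replicate 1. The same 3 libraries had the lowest summed RPE markers, 269683, 205983 and 292575, against 448367 to 883072 in the other libraries. Of the macrophage markers in RPE, Fcgr1 alone passed the test in Mertk-/-V1, at a log2 fold change of 1.13 (adjusted p by limma 0.00506). The 6 replicates of B6 WT and of Mertk-/-V1 RPE also fell into sets by their numbers, which are given separately below.

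Before the genotypes are compared, the transcript levels in B6 WT are described for each tissue. Use of the pathway was not measured. These levels are reads per kb of exon, scaled to the same number of reads on genes in each library (RPKM), and since the tables were normalized separately the tissues were compared without a test. In RPE Nqo1, the quinone reductase, was the most abundant of the 10 transcripts at 125 ± 18.2 (SD, n = 6). Every RPE library had more Nqo1 than any library had Hmox1, the next in order at 26.6 ± 13.3. From Hmox1 down to Srxn1 (16.1 ± 1.16) 7 genes followed in overlapping steps, with Gclc, Gsr, Txnrd1 and Nfe2l2 between 19.6 and 19.9 on average. Keap1 at 8.69 ± 0.430 lay below Srxn1 and above Slc7a11 (5.17 ± 1.48) in every library. In BMDMs Hmox1, which opens the haem ring and is the enzyme by which macrophages dispose of haem, led with 788 ± 66.2 (SD, n = 3). Nfe2l2 at 68.4 ± 1.73 and Txnrd1 at 45.7 ± 2.85 came next, without overlap. Nqo1 (2.52 ± 0.366) and Slc7a11 (0.0532 ± 0.0215) were last.

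**Figure D1:**
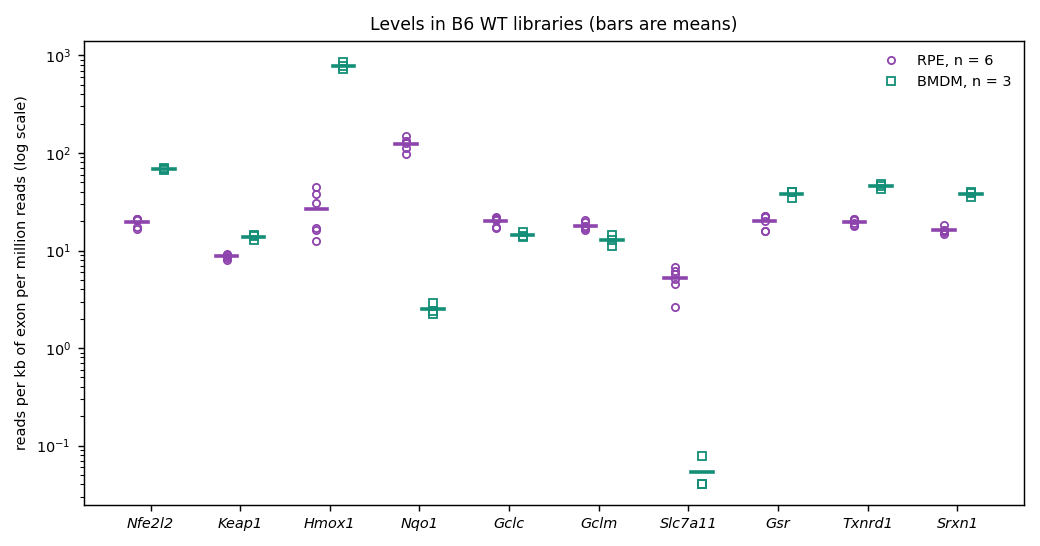
Level of each gene in the B6 WT libraries, in RPKM on a log axis, with RPE libraries as circles (n = 6), BMDM libraries as squares (n = 3) and bars at the means. The tissues do not overlap for any of the 10 genes (the share of all genes is not given), and Nqo1, Slc7a11 and Hmox1 lie furthest apart.

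For none of the 10 genes did the B6 WT libraries of the tissues overlap. How many of all genes did the same is not given here, so the gap cannot be read as a trait of this list. Slc7a11, the cystine-glutamate exchanger that brings in cysteine for glutathione, was 97.2-fold higher in RPE, and Nqo1 was 49.6-fold higher in RPE. Hmox1 was 29.7-fold higher in BMDMs, as were, by smaller folds, Nfe2l2 (3.49), Srxn1 (2.36), Txnrd1 (2.31), Gsr (1.90) and Keap1 (1.59). The ligase pair of glutathione synthesis differed least, with Gclc 1.38-fold and Gclm 1.41-fold higher in RPE. With 12 to 55 reads per library, Slc7a11 in BMDMs was close to the floor of the measurement.

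In the main fit of RPE no gene of the 10 passed an adjusted p of 0.05 by limma in any comparison with B6 WT. Of all 18832 genes tested, 0.388% passed in Mertk-/-V1, while Mertk-/-V2 had 0.069% and Mertk-/-V3 also 0.069%, and edgeR and DESeq2 on the recovered reads also called 0 of the 10. At an unadjusted p under 0.05 there were 2 members in Mertk-/-V1 (Nqo1 and Gclm), against 6.81% of all genes, and 0 in Mertk-/-V2 (5.47%) and Mertk-/-V3 (11.1%). The median log2 fold change of the members was −0.17 in Mertk-/-V1 against 0.02 over all genes tested. In Mertk-/-V2 it was −0.01 against 0.02 and in Mertk-/-V3 −0.29 against −0.01. Against the mean of the other knockouts, Mertk-/-V1 had 0 members called (0.207% of genes). At an unadjusted p under 0.05 it had 2, Nqo1 and Srxn1, against 9.56% of all genes.

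**Figure D2:**
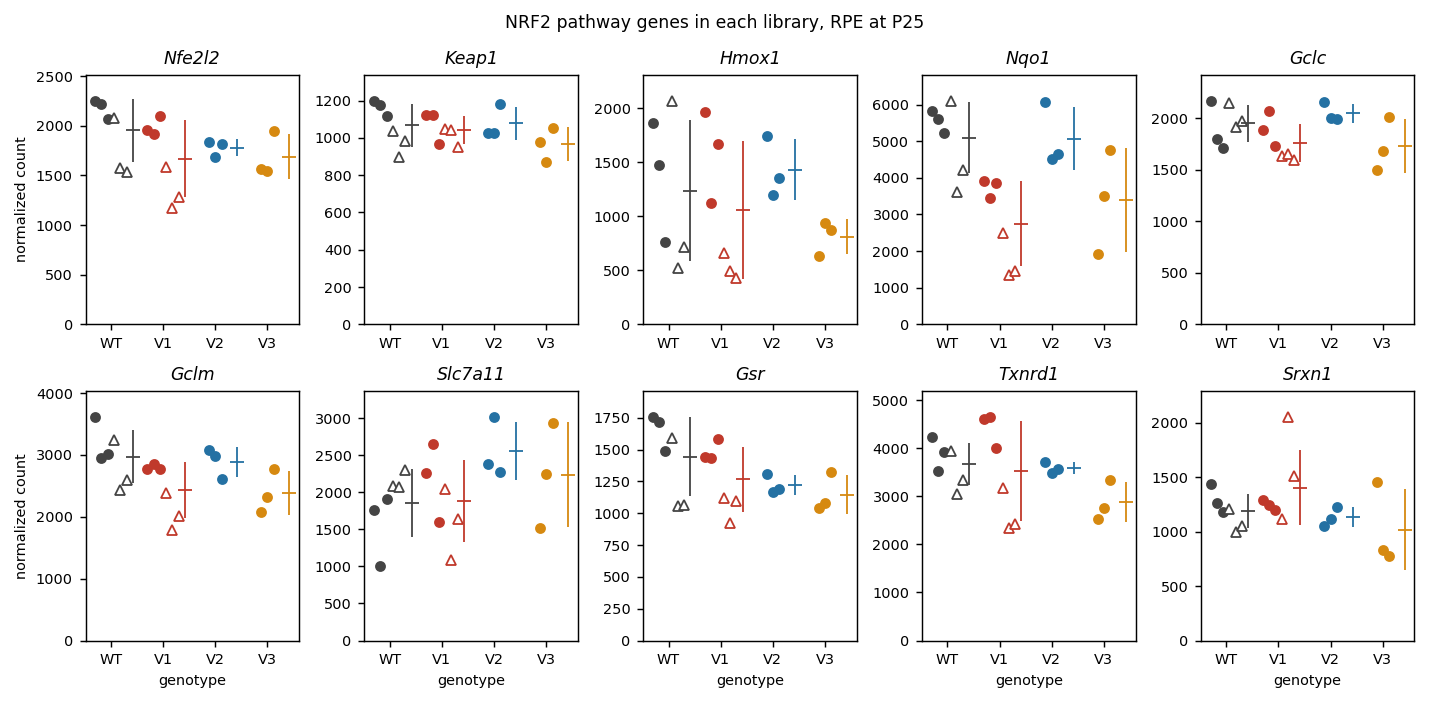
Normalized counts of the 10 genes in each of the 18 RPE libraries by genotype, with the mean ± SD beside the points; filled circles are replicates 1 to 3 and open triangles replicates 4 to 6. Nqo1 of Mertk-/-V1 runs from 1358 to 3902 against 3626 to 6089 in B6 WT, and within Mertk-/-V1 the open triangles lie below the circles for several genes.

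Neither regulator was called against B6 WT in the main fit of RPE. Nfe2l2 ran from 1535 to 2247 normalized counts in the 6 B6 WT libraries (median 2073) and from 1170 to 2101 in Mertk-/-V1 (median 1751). It measured 1835, 1681 and 1819 in Mertk-/-V2 and 1564, 1546 and 1948 in Mertk-/-V3, so each knockout overlapped B6 WT. The log2 fold changes were −0.24 for Mertk-/-V1 (95% interval −0.55 to 0.07), −0.12 for Mertk-/-V2 (−0.50 to 0.26) and −0.20 for Mertk-/-V3 (−0.58 to 0.18). Keap1, the adaptor that marks NRF2 for degradation, had the narrowest intervals of the list. Its difference from B6 WT was −0.03 (−0.20 to 0.14), 0.02 (−0.19 to 0.23) and −0.14 (−0.35 to 0.07) in the 3 lines in the same order. In replicates 1 to 3 alone, described further on, Mertk-/-V3 differed by −0.38 for Nfe2l2, which was then called (adjusted p by limma 0.0213), and by −0.27 for Keap1 (adjusted p 0.0700). Nfe2l2 in Mertk-/-V3 was called in 4 of 13 alternative fits, which called 21.7% to 66.9% of all genes. Keap1 was called in 1 of 13, the fit with array quality weights, which called 66.9% of genes. Apart from replicates 1 to 3 alone, the fits with these calls held all RPE libraries.

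Nqo1, which reduces quinones by 2 electrons with NAD(P)H and so keeps them from redox cycling, was the gene with the largest difference in RPE. In B6 WT it measured 5826, 5595 and 5217 normalized counts in replicates 1 to 3 and 6089, 3626 and 4224 in replicates 4 to 6. In Mertk-/-V1 replicates 1 to 3 measured 3902, 3438 and 3848, and replicates 4 to 6 measured 2493, 1358 and 1451. Within either set of replicates every Mertk-/-V1 library lay below every B6 WT library of that set, although the groups of 6 overlapped. Of all genes, 7.02% did so in replicates 1 to 3 and 8.36% in replicates 4 to 6. Mertk-/-V2, at 6061, 4508 and 4649, stayed among the B6 WT values, and Mertk-/-V3 was spread from 1930 through 3508 to 4766. The mean was 5096 ± 970 (SD, n = 6) for B6 WT and 2748 ± 1157 (SD, n = 6) for Mertk-/-V1, a log2 fold change of −0.99 that did not pass the adjusted test (SE 0.28, 95% interval −1.59 to −0.40, adjusted p by limma 0.237). Mertk-/-V3 differed by −0.65 (SE 0.34, −1.38 to 0.08, adjusted p 0.460) and Mertk-/-V2 by 0.00 (−0.73 to 0.73). Between Mertk-/-V1 and the mean of the other knockouts the difference was −0.67 (−1.27 to −0.07, adjusted p by limma 0.479). Mertk-/-V2 and Mertk-/-V3 have replicates 1 to 3 only, and among replicates 1 to 3 of every line that difference was −0.10 (adjusted p by limma 0.798), in a fit added after the data had been seen. With the set of replicates as a term, also added, it was −0.31 (adjusted p by limma 0.457), with 0 members and 9.71% of genes called.

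The libraries with the least Nqo1 were those with the fewest RPE marker reads. Mertk-/-V1 replicates 5 and 6 and Mertk-/-V3 replicate 1, named above for their rod markers, had the 3 lowest Nqo1 values of the 18. In Mertk-/-V1 replicates 1 to 3 the rod markers (61747 to 92151) lay within the range of B6 WT replicates 1 to 3 (32645 to 120380), while the RPE markers were lower, at 506388 to 648364 against 692963 to 883072. With the rod marker level as a covariate Nqo1 was called, at −0.90 (adjusted p by limma 0.00195), as was Gclm at −0.25 (adjusted p 0.0342), with 1.61% of all genes called. The difference of Nqo1 from the mean of the other knockouts then also passed, at −0.67 (adjusted p by limma 0.0249, 0.871% of genes), the single setting of 13 that called it, over a range from −0.74 to −0.10 with an adjusted p of up to 0.798. The next fits were added after the data had been seen. With the RPE marker level as a covariate the difference of Nqo1 shrank to −0.34 in Mertk-/-V1 (unadjusted p by limma 0.00898, adjusted p 0.250, 0.797% of genes called) and to −0.30 in Mertk-/-V3 (adjusted p 0.397, 0.101% of genes), with 0 members called in either. Between Mertk-/-V1 and the mean of the other knockouts Nqo1 was then −0.12 (adjusted p by limma 0.514). Without the 3 libraries richest in rod markers it was −0.57 in Mertk-/-V1 (adjusted p by limma 0.246, 0.558% of genes) and −0.29 in Mertk-/-V3 (adjusted p 0.468, 0.133%), again with 0 members called. In replicates 1 to 3 alone the difference in Mertk-/-V1 was −0.57 (adjusted p by limma 1.00, 0.069% of genes called) and in replicates 4 to 6 alone −1.42 (adjusted p 0.562, 0.00531%). The part of the RPE share of the sample in the level of Nqo1 was not tested beyond these fits.

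**Figure D3:**
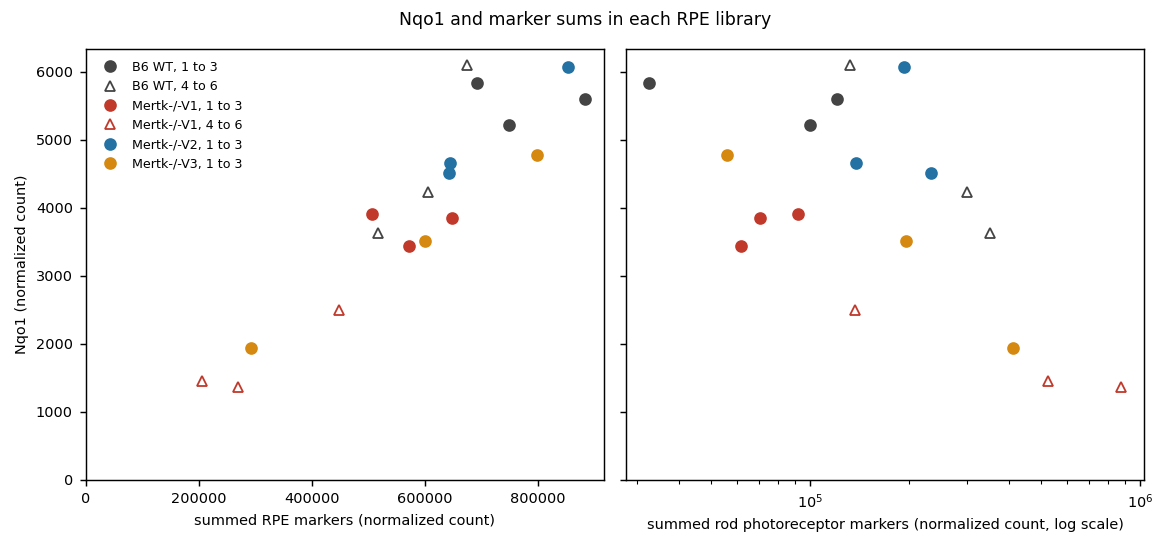
Nqo1 in each of the 18 RPE libraries (normalized count, vertical axis) against the summed RPE markers (left) and the summed rod photoreceptor markers on a log axis (right); colours give the genotype and open triangles replicates 4 to 6. The 3 libraries with the least Nqo1, 1358, 1451 and 1930 normalized counts, have the lowest RPE marker sums and the highest rod marker sums.

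Hmox1, the inducible haem oxygenase, spread widely within B6 WT and Mertk-/-V1. B6 WT RPE ran from 524 to 2063 normalized counts (median 1122) and Mertk-/-V1 from 431 to 1961 (median 894). The values were 1740, 1196 and 1357 in Mertk-/-V2 and 629, 937 and 868 in Mertk-/-V3. Its intervals were the widest of the list, −1.13 to 0.58, −0.67 to 1.43 and −1.49 to 0.60 in the 3 lines.

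No gene of glutathione synthesis or recycling was called in the main fit of RPE. Against B6 WT, alternative fits called Gclm and Gsr of Mertk-/-V3 in 4 of 13 each, fits that called 21.7% to 66.9% of all genes. Gclc and Slc7a11 of that line were called in 1 of 13 each, with array quality weights (66.9% of genes). Gclm of Mertk-/-V1 was called in 1 of 14 (1.61% of genes) and Gsr of Mertk-/-V2 in 1 of 13 (3.75%). Gclm, the modifier subunit of glutamate-cysteine ligase, ran from 2439 to 3604 in B6 WT (median 2980) and from 1785 to 2852 in Mertk-/-V1 (median 2580). The difference was −0.30 (95% interval −0.57 to −0.03, adjusted p by limma 0.675), and in replicates 1 to 3 Gclm and Nqo1 were the 2 members with every Mertk-/-V1 library below every B6 WT library, as were 7.02% of all genes. In replicates 4 to 6 there were 4 such members, Gclc, Gclm, Slc7a11 and Nqo1, against 8.36% of genes. Mertk-/-V3 (2079, 2313 and 2769) differed in Gclm by −0.31 (−0.65 to 0.02), and Mertk-/-V2 (3075, 2985 and 2618) by −0.03 (−0.36 to 0.30). Gclc, the catalytic subunit, differed by −0.15, 0.07 and −0.18 in the 3 lines, within intervals from −0.40 to 0.30. Slc7a11 measured 2382, 3010 and 2279 in Mertk-/-V2 against 1007 to 2303 in B6 WT, a difference of 0.50 (−0.10 to 1.09). In Mertk-/-V1 it was 0.01 (−0.47 to 0.49) and in Mertk-/-V3 0.26 (−0.33 to 0.85). Gsr, which reduces oxidized glutathione, differed by −0.19 to −0.31 in the 3 lines, with each interval including 0.

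Txnrd1, the cytosolic thioredoxin reductase, and Srxn1, which repairs overoxidized peroxiredoxins, did not move together. Txnrd1 reached 4607, 4637 and 4010 in Mertk-/-V1 replicates 1 to 3 and 3171, 2335 and 2431 in replicates 4 to 6, against 3051 to 4236 in B6 WT. Srxn1 was highest in Mertk-/-V1 replicates 5 and 6, at 2050 and 1516, and in Mertk-/-V3 replicate 1, at 1452, against 1001 to 1443 in B6 WT. These are the 3 libraries with the most rod marker reads, and the other Mertk-/-V3 libraries measured 833 and 774. The difference from B6 WT was 0.21 in Mertk-/-V1 (−0.13 to 0.55), and from the mean of the other knockouts 0.38 (0.04 to 0.73, adjusted p by limma 0.479).

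The sets of replicates differed within Mertk-/-V1. With B6 WT and Mertk-/-V1 in 1 contrast, 6 of the 10 genes were lower in replicates 4 to 6 than in replicates 1 to 3, against 41.1% of all genes called in that contrast. They were Nfe2l2 at −0.46, Txnrd1 at −0.47, Gsr at −0.48, Nqo1 at −0.71, Gclm at −0.33 and Hmox1 at −1.02 on the log2 scale (adjusted p by limma 0.00835 to 0.0322). Within Mertk-/-V1 the same 6 genes were lower, from −0.45 for Gclm to −1.57 for Hmox1 (28.7% of genes called). Within B6 WT none was called (0.0212% of genes), with Nfe2l2 at −0.34 and Gsr at −0.44. Whether the Mertk-/-V1 effect itself differed between the sets was tested, and 0 members passed, with 0% of the 18832 genes called. Nqo1 at −0.84, Txnrd1 at −0.57 and Slc7a11 at −0.98 were past an unadjusted p of 0.05 by limma (adjusted p 0.719 for each). The share of all genes past that unadjusted p is not given here. The labels give these libraries numbers only. Replicates 4 to 6 held fewer reads (14137666 to 20779930 per library) than replicates 1 to 3 (23417838 to 34124049). Several marker sums differed between the sets as well. Summed rod markers were 137291 to 872504 normalized counts in Mertk-/-V1 replicates 4 to 6 against 61747 to 92151 in replicates 1 to 3, and 131923 to 349928 against 32645 to 120380 in B6 WT. Summed RPE markers were 205983 to 448367 against 506388 to 648364 in Mertk-/-V1, and 517272 to 675605 against 692963 to 883072 in B6 WT. The 7 dissociation stress genes (immediate early genes and the heat shock genes Hspa1a and Hspa1b) summed to 4290 to 6351 against 9018 to 10648 in Mertk-/-V1, and to 3505 to 5770 against 6681 to 8670 in B6 WT. Summed red cell markers were 7336 to 16721 against 24707 to 79594 in Mertk-/-V1, and 7695 to 10238 against 17682 to 54305 in B6 WT. Summed lens markers were 5626 to 49570 against 67957 to 175375 in Mertk-/-V1 and overlapped in B6 WT. Summed fibroblast markers overlapped between the sets in both genotypes. The part of these markers in the difference between the sets was not tested.

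Since Mertk-/-V2 and Mertk-/-V3 have replicates 1 to 3 only, they were also set against B6 WT replicates 1 to 3 alone. In Mertk-/-V2 0 members were then called, with 0.159% of all genes; Gsr was at −0.44 (adjusted p by limma 0.0841), Nfe2l2 at −0.29 (adjusted p 0.145) and Slc7a11 at 0.76 (adjusted p 0.204). In Mertk-/-V3 5 members were lower, with 21.7% of all genes called. They were Nqo1 (−0.80), Gsr (−0.53), Txnrd1 (−0.44), Gclm (−0.42) and Nfe2l2 (−0.38), with an adjusted p by limma of 0.0114 to 0.0487. Against the mean of the other knockouts, Mertk-/-V1 was higher in this fit for Txnrd1 (0.46, adjusted p by limma 0.0179) and Gsr (0.33, adjusted p 0.0411), with 11.3% of genes called. The labels do not say whether equal numbers mark a shared preparation.

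**Figure D4:**
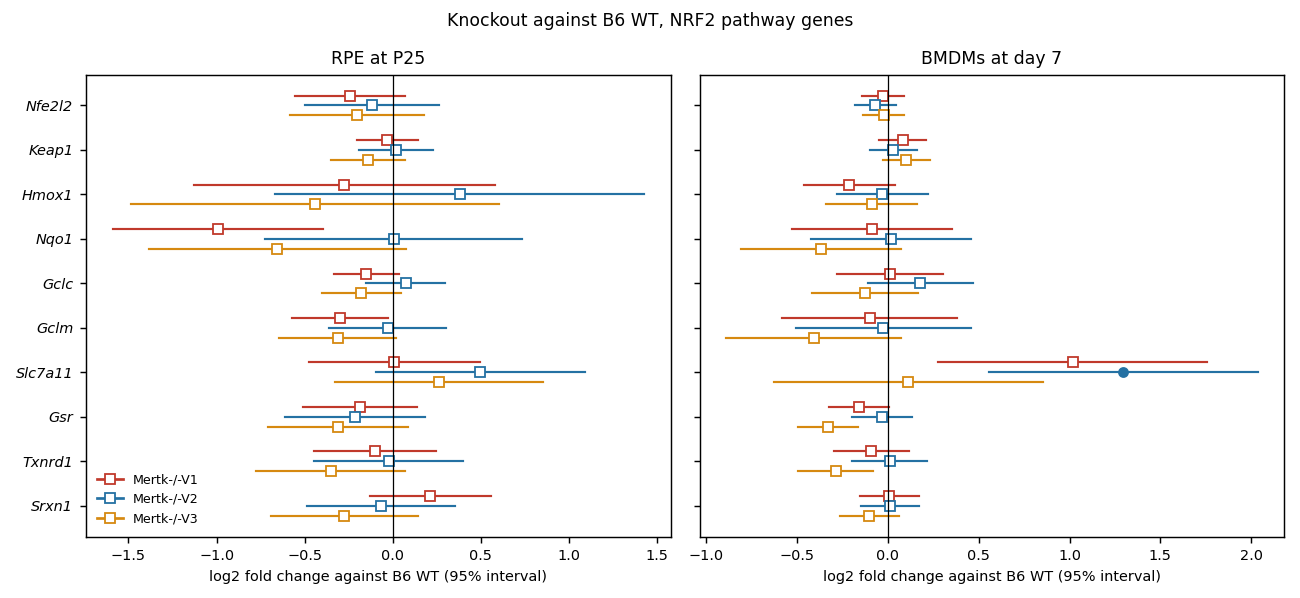
Log2 fold change of each gene in the 3 knockouts against B6 WT, in RPE on the left and BMDMs on the right, with 95% intervals from limma; a filled symbol marks an adjusted p under 0.05. Slc7a11 in Mertk-/-V2 BMDMs, at 1.30, is the filled symbol, and Nqo1 in Mertk-/-V1 RPE, at −0.99, is the lowest value.

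In BMDMs Slc7a11 was the member called in the main comparisons. It rose in Mertk-/-V2 from 22.2, 11.4 and 11.7 normalized counts in B6 WT to 32.8, 29.2 and 52.2, without overlap, as in 10.1% of all genes tested. The means were 15.1 ± 6.14 and 38.1 ± 12.4 (SD, n = 3 each), and the log2 fold change was 1.30 (SE 0.34, 95% interval 0.56 to 2.04, adjusted p by limma 0.0484), with 4.61% of all 13420 genes called. In Mertk-/-V1 the values were 21.1, 34.0 and 38.2, which overlapped B6 WT, with a difference of 1.02 (0.28 to 1.76, adjusted p 0.0894). Mertk-/-V3, at 21.8, 12.8 and 13.7, differed by 0.11 (−0.63 to 0.85). The call in Mertk-/-V2 lay at the edge of the threshold: the adjusted p ran from 0.0470 to 0.163 over 7 alternatives, and the call was kept in 1 of the 12 fits that left out a library. No other member was called in Mertk-/-V2, 0 were called in Mertk-/-V1 (7.07% of genes) and 0 in Mertk-/-V3 (1.17%), and 0 differed between Mertk-/-V1 and the mean of the other knockouts (0.991%). At an unadjusted p under 0.05 there was 1 member for Mertk-/-V1 (Slc7a11), 1 for Mertk-/-V2 (Slc7a11) and 2 for Mertk-/-V3 (Gsr and Txnrd1), against 23.6%, 21.4% and 15.9% of genes. edgeR called 0, 1 and 0 of the 10 in the same order. DESeq2 called 0 in Mertk-/-V1, 0 in Mertk-/-V2, where it gave Slc7a11 no adjusted p, and 1 in Mertk-/-V3.

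**Figure D5:**
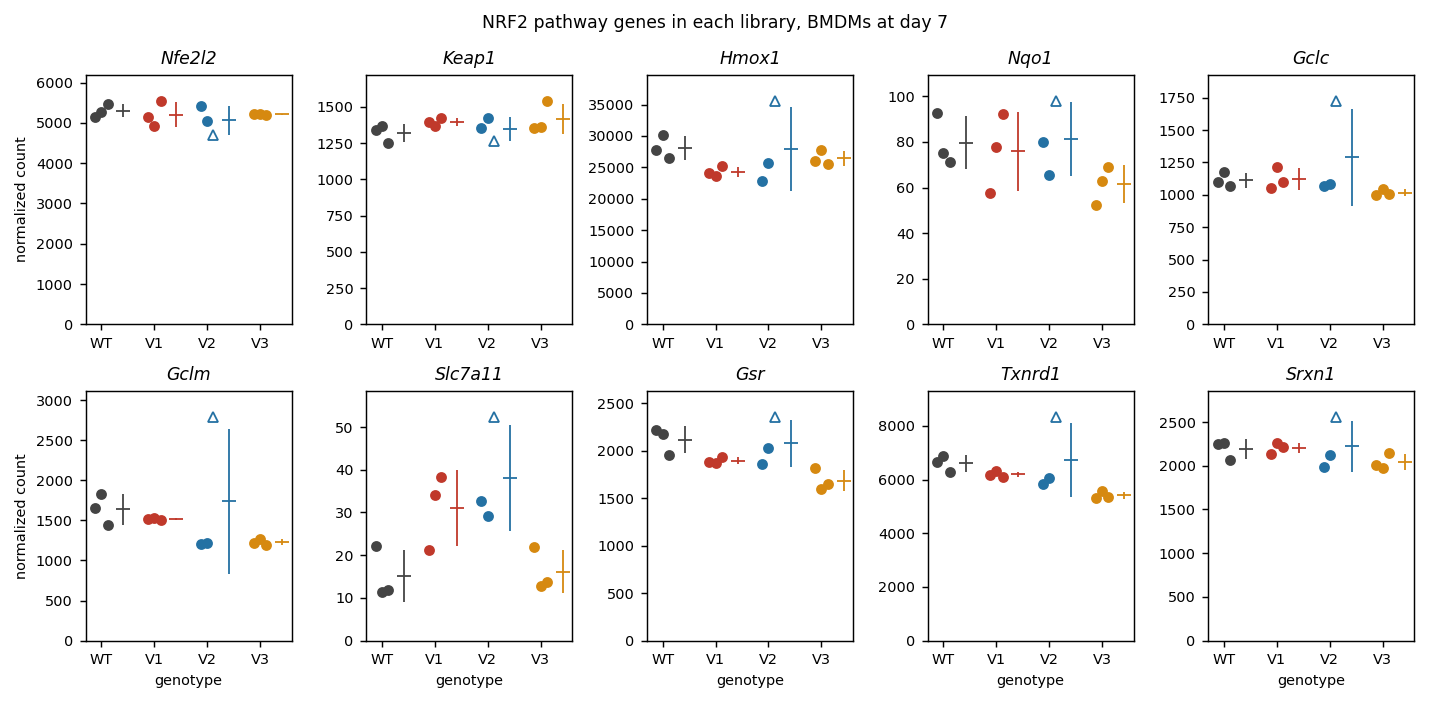
Normalized counts of the 10 genes in each of the 12 BMDM libraries by genotype, with the mean ± SD beside the points; the open triangle is replicate 3 of Mertk-/-V2. That library is the highest of the 12 for 8 genes and the lowest for Nfe2l2, and the Mertk-/-V3 libraries lie below B6 WT for Gclc, Gclm, Gsr, Txnrd1 and Nqo1.

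One macrophage library stood apart for the targets. Replicate 3 of Mertk-/-V2 was the highest of the 12 libraries for each of the 8 target genes, a rank it held in 13.6% of all genes. It had 2786 normalized counts of Gclm against 1211 and 1222 in the other Mertk-/-V2 libraries, a ratio of 2.29 to their mean. Slc7a11 was 1.69 times, Gclc 1.60 times (1722), Hmox1 1.47 times (35524) and Txnrd1 1.40 times (8316) the mean of the other Mertk-/-V2 libraries, and Nqo1, Srxn1 and Gsr were 1.34, 1.24 and 1.21 times. The regulators were not high in it. Nfe2l2 was the lowest of the 12 there, at 4710 against 4925 to 5534, and Keap1 measured 1263 within a range of 1253 to 1539. Beyond the 10, the glutathione transferase Gsta3 measured 69.3 against 2.43 and 7.06, a ratio of 14.6, and Me1, which makes NADPH, Slc3a2, the partner chain of SLC7A11, and the exporter Abcc1 were also highest in this library. These genes were noted after their values were seen. Of the 65 pathway genes tested 15 were highest and 15 lowest in it. The summed macrophage markers of this library, 318956, were the lowest of the 12, whose range reached 364082.

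Without that library the spread narrowed and more of the list passed. In Mertk-/-V2 Gclm was then lower at −0.42 (adjusted p by limma 0.00383) and Hmox1 at −0.22 (adjusted p 0.0484), while Slc7a11 at 1.05 no longer passed (adjusted p 0.0971), with 8.72% of all genes called. In Mertk-/-V3 Gclm (−0.41, adjusted p 0.00338), Gsr (−0.33, 0.00553) and Txnrd1 (−0.29, 0.00136) were lower by limma, with 5.63% of genes called. In Mertk-/-V1 Hmox1 was lower at −0.21 (adjusted p by limma 0.0264, 12.2% of genes), and Gclm was higher than in the mean of the other knockouts by 0.32 (adjusted p 0.00968, 1.98% of genes). The calls of Gclm and Hmox1 in Mertk-/-V2 and of Gclm against the other knockouts appeared in no other fit that was run. The other calls appeared in further fits. In Mertk-/-V3 Gsr was called in 3 of 8 alternative fits, which called 3.48% to 12.6% of the genes tested. It was also called in 3 of the 12 that left out 1 library (1.8% to 5.63% of genes). Gclm and Txnrd1 in that line were called in 2 of 8 each (4.18% and 12.6% of genes), and Hmox1 in Mertk-/-V1 in 2 of 8 (9.67% and 20.6%). The fit of only the groups compared, which is among them, held no Mertk-/-V2 library. In fits that kept replicate 3 of Mertk-/-V2, Gclm and Txnrd1 in Mertk-/-V3 and Hmox1 in Mertk-/-V1 were called with array quality weights only, which weigh libraries unequally.

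With all libraries in, Mertk-/-V3 BMDMs lay below B6 WT without overlap for 5 members, as did 13.2% of all genes. Gsr measured 1815, 1596 and 1649 against 2218, 2179 and 1960 in B6 WT, a difference of −0.33 (SE 0.08, −0.49 to −0.16, adjusted p by limma 0.0569). Txnrd1 measured 5309, 5571 and 5346 against 6652, 6892 and 6273, a difference of −0.29 (−0.49 to −0.08, adjusted p 0.163). Gclm (1221, 1272 and 1198 against 1652, 1825 and 1443) differed by −0.41 (−0.89 to 0.07), Gclc by −0.13 and Nqo1 (52.4, 62.9 and 69.1 against 92.9, 75.0 and 71.3) by −0.37. In Mertk-/-V1 the libraries lay below B6 WT for 2 members, Gsr and Hmox1 (15.4% of genes), and above it for Keap1 (15.4% of genes). Hmox1 measured 24073, 23588 and 25154 there against 27784, 30221 and 26428. Nfe2l2, with 4710 to 5534 normalized counts over the 12 libraries, differed from B6 WT by −0.03, −0.07 and −0.02 in the 3 lines, within intervals from −0.18 to 0.09. Srxn1 differed by 0.01, 0.01 and −0.10.

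No member passed the test of a difference between tissues in its response to a knockout. The contrast of the effects by limma, RPE minus BMDMs, called 0 members in each of the 3 lines, against 0.376% of the 12513 genes tested for Mertk-/-V1, 0.12% for Mertk-/-V2 and 0.04% for Mertk-/-V3. At an unadjusted p under 0.05 there were 2 members for Mertk-/-V1, against 8.79% of all genes, and 0 for Mertk-/-V2 (10.7%) and Mertk-/-V3 (5.84%). For Slc7a11 the effect of Mertk-/-V1 differed by −1.01 on the log2 scale (95% interval −1.85 to −0.17, adjusted p by limma 0.427), and for Nqo1 it was −0.91 (−1.77 to −0.04, adjusted p 0.539).

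The wider pathway was followed in lists of 70 further genes. In RPE all 70 were tested and the main fit by limma called 0 in any comparison, against at most 0.388% of all genes. At an unadjusted p under 0.05 there were 10, 5 and 17 of them in the 3 lines, against 6.81%, 5.47% and 11.1% of all genes. In BMDMs 65 were tested, of which 1 was higher and 5 lower in Mertk-/-V1, 4 higher and 3 lower in Mertk-/-V2, and 1 higher in Mertk-/-V3, with 7.07%, 4.61% and 1.17% of all genes called. The targets of ATF4, the factor of the integrated stress response that also drives Slc7a11, gave 3 of the 7 higher in Mertk-/-V2. These were Trib3, a pseudokinase (155 ± 22.4 in B6 WT and 313 ± 41.3, log2 fold change 1.01, adjusted p by limma 0.00112), Asns, asparagine synthetase (0.36, adjusted p 0.00313), and Chac1, which degrades glutathione (1.23, adjusted p 0.0433). Trib3 was also higher in Mertk-/-V1 (0.91, adjusted p by limma 0.00172) and Mertk-/-V3 (0.85, adjusted p 0.00979), with Mertk-/-V1 at 292 ± 43.8 and Mertk-/-V3 at 280 ± 17.4 (SD, n = 3 each). Trib3 (chr2:152337422-152344032), Chac1, Blvra (chr2:127070665-127097084), Nfe2l2 (chr2:75675513-75704641) and Srxn1 (chr2:152105516-152111376) lie on chromosome 2 with Mertk (chr2:128698956-128802894), and the part of linked strain sequence in their levels was not tested.

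The thioredoxin and peroxiredoxin list had 3 of 11 genes lower in Mertk-/-V1 BMDMs and 2 of 11 in Mertk-/-V2, with 7.07% and 4.61% of all genes called. Prdx5, a peroxiredoxin of mitochondria and peroxisomes, measured 5063 ± 187 in B6 WT and 3923 ± 288 in Mertk-/-V1 (−0.37, adjusted p by limma 0.00291) and differed by −0.24 in Mertk-/-V2 (adjusted p 0.0386). Txn1, cytosolic thioredoxin, was lower too, at −0.22 and −0.19 (adjusted p by limma 0.0167 and 0.0428), and Txn2, its mitochondrial relative, at −0.19 in Mertk-/-V1 (adjusted p 0.0221). Rbx1, the RING subunit of the ligase that ubiquitinates NRF2, was lower in the same lines, at −0.19 and −0.16 (adjusted p by limma 0.0190 and 0.0495), and Mafk, a small MAF partner of NRF2, was higher in Mertk-/-V2 by 0.24 (adjusted p 0.0401). Taldo1, of the pentose phosphate pathway, was lower in Mertk-/-V1, at −0.25 (adjusted p by limma 0.0411). The dissociation stress list also differed in these lines. Its 7 genes summed to 10684 to 11698 normalized counts in the B6 WT libraries. Mertk-/-V1 had 7577 to 8150, Mertk-/-V2 had 8102 to 8624 and Mertk-/-V3 had 10323 to 11992. Of the 7 genes 3 were lower and 1 higher in Mertk-/-V1, against 7.07% of all genes called. Mertk-/-V2 had 2 lower and 1 higher, against 4.61%. Fos was at −2.60 in Mertk-/-V1 (adjusted p by limma 2.89e-07) and −2.46 in Mertk-/-V2 (8.88e-07). Jun was also lower in both (−0.39 and −0.41, adjusted p by limma 0.000372 and 0.000390), Ier2 was lower in Mertk-/-V1, and Atf3 was higher in both (0.38 and 0.29, adjusted p by limma 0.000931 and 0.00963). The part of this list in the results above was not tested.

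Ferritin, the biliverdin reductases, Bach1 and Cul3 were named whatever their values. Ferritin stores the iron that HMOX1 frees, and it differed in RPE by −0.11, 0.09 and −0.41 for Fth1 and by −0.36, 0.19 and −0.37 for Ftl1, in the order of the lines. Blvrb, a biliverdin reductase, had 203 to 254 normalized counts in Mertk-/-V3 RPE against 206 to 584 in B6 WT, a difference of −0.66 (−1.37 to 0.05, adjusted p by limma 0.456). Blvra, the other biliverdin reductase, differed by 0.18, 0.20 and −0.16 in RPE and by 0.01, −0.03 and 0.04 in BMDMs. Bach1, the haem-sensing repressor of Hmox1, differed by at most 0.17 on the log2 scale in either direction in RPE and 0.10 in BMDMs. Cul3, the scaffold of the KEAP1 ligase, differed most in Mertk-/-V3 BMDMs, at −0.16 (−0.27 to −0.04, adjusted p by limma 0.183).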

How the data were processed

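Paired-end reads of 150 bp were trimmed (btrim) and aligned to GRCm38 (STAR) by the authors, who tested genotypes with DESeq2. The counter, annotation and versions are not given in the sources used here. The deposited values are a signal, the count of each gene divided by a DESeq2 size factor for its library, here called normalized counts, and whole reads were recovered from them. The main test was limma 3.58.1 in R 4.3.3 (lmFit, eBayes with a trend) on log2(normalized count + 1), with the 4 genotypes of a tissue in 1 fit, genes with a mean of at least 10, and Benjamini-Hochberg adjustment over all genes tested; fold changes on this scale understate those of low genes. A call was an adjusted p under 0.05. The study also asked for a log2 fold change of 1.25, which Slc7a11 in Mertk-/-V2 BMDMs passed. edgeR 4.0.16 and DESeq2 1.42.0 were run on the recovered reads as alternatives. The scripts were tested on simulated data. Nothing in the sources used here ties libraries to separate litters or cultures, so p-values measure the spread between libraries. Lengths and positions came from GENCODE release 21 (55480 of 55573 identifiers matched). The members and lists were chosen with earlier results of these data known. Genes were named by rule: all members, up to 4 called genes of each list, and Blvra, Blvrb, Fth1, Ftl1, Bach1 and Cul3. A total of 0 value columns lacked a sample.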

Additional observations from a re-analysis of the deposited data

Results flagged for a closer look

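Of 42 groups of 6 RPE libraries (10 genes and the marker sums, in B6 WT and Mertk-/-V1), 1 held a library that stood apart from the others by the gap to its nearest neighbour, and chance flags about 1 in 20 such groups. It was the summed neutrophil markers in Mertk-/-V1 RPE replicate 3, at 1045 normalized counts. None of the 10 genes was flagged.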

How the results depend on the processing

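Of 97 counts of members called under another setting, 76 stayed within 1.5 times the main count and no member that was called turned direction. In RPE, the rod covariate gave 2 members in Mertk-/-V1 and 1 against the other knockouts. Correlations of same-numbered libraries ran from −0.29 to 0.18 in RPE and from −0.30 to 0.36 in BMDMs. Those of differently numbered libraries ran from −0.39 to 0.46 and from −0.40 to 0.33. Same-numbered libraries were thus not more alike by this measure, and pairing by number was not tested further. The replicate block gave 1 member in Mertk-/-V2, 5 in Mertk-/-V3 (29.8% of genes) and 1 for Mertk-/-V1 against the other knockouts (12.4%) in RPE, and 0 in Mertk-/-V2 BMDMs. Array quality weights gave 9 in Mertk-/-V3 RPE (66.9% of genes), 3 for Mertk-/-V1 RPE against the other knockouts (28.9%), 3 in Mertk-/-V1 BMDMs (20.6%), 0 in Mertk-/-V2 BMDMs and 3 in Mertk-/-V3 BMDMs (12.6%). In Mertk-/-V3 RPE the set of replicates as a term gave 5 (25.2%) and replicates 1 to 3 alone 5; the latter gave 2 for the difference between tissues (18.3%) and, added after the data had been seen, 2 for Mertk-/-V1 against the other knockouts (11.3%). Fitting only the groups compared gave 1, 0 and 3 members in the BMDMs of the 3 lines. No filter on low values and quantile normalization each gave 0 in Mertk-/-V2 BMDMs, and DESeq2 gave 1 in Mertk-/-V3 BMDMs. Leaving out 1 library gave 0 to 1, 0 to 2 and 0 to 3 in the BMDMs of the 3 lines and 0 to 1 for Mertk-/-V1 against the others. The cause of these changes was not tested.

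Counts over all genes moved too. In Mertk-/-V1 RPE 73 genes were called, 202 with DESeq2, 151 with array weights, 131 with the block, 139 with the set as a term and 303 with the rod covariate. For Mertk-/-V2 RPE 13 became 861 with array weights and 706 with the block, and for Mertk-/-V3 RPE 13 became 62 with DESeq2, 12592 with array weights and 5619 with the block. In Mertk-/-V2 BMDMs 618 became 69 with only the groups compared, and in Mertk-/-V3 BMDMs 157 became 561 and, with DESeq2, 403. For Mertk-/-V1 RPE against the other knockouts 39 became 2134 with replicates 1 to 3 alone and 1828 with the set as a term. Slc7a11 in BMDMs rested on 12 to 55 reads per library.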
